A study of Mus musculus with 2 samples.

Results

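MicroRNA genes that sit inside introns of genes with roles in neurons were examined in the mouse left cerebral cortex. The set holds 7 of the 2202 microRNA genes in the count tables: Mir383, Mir326, Mir346, Mir488, Mir153, Mir218-2 and Mir218-1. They were chosen by gene symbol and host, with no abundance threshold but with earlier results of these data known. Each was traced through its Ensembl identifier in GENCODE M21. Small RNA libraries had been prepared from left cerebral cortex of male B6CASTF1/J mice, the first-generation offspring of C57BL/6 and CAST/Ei parents, at 14 days of age. No treatment or allele was varied. The design has 1 group with 2 replicate libraries, so levels and the spread between the libraries can be described, and no condition can be compared. The labels give the same donor record for both libraries and mention 3 males in the tissue records without saying whether tissue was pooled, so the spread may be technical.

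An intronic microRNA hairpin is usually cut from the primary transcript of its host gene by Drosha and then trimmed by Dicer, and some hairpins also have a promoter of their own. The mature strand guides Argonaute proteins to messenger RNAs that pair with its seed, bases 2 to 8, and lowers their translation or stability. The hosts of this set cover several neuronal functions. Slit2 and Slit3 encode secreted axon guidance ligands of the Robo receptors, and Grid1 encodes the delta-1 member of the ionotropic glutamate receptor family. Astn1 encodes astrotactin 1, a neuronal membrane protein used in migration along glia, and Ptprn2 encodes phogrin, a protein of dense-core vesicles. Arrb1 encodes beta-arrestin 1, which desensitises G protein-coupled receptors in many cell types, and Sgcz encodes zeta-sarcoglycan, a subunit known best from muscle membranes. RNA of the hosts was not measured in these libraries, so the neuronal label of the hosts rests on this background alone.

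The mature sequences show which members can share targets and which can share reads. RefSeq entries (GRCm38.p6) were matched by symbol for 6 of the 7 genes, all but Mir383. The sequences below run 5′ to 3′ with the seed in capitals.
miR-153-5p: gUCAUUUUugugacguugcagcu
miR-153-3p: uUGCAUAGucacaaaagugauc
miR-218-5p (from Mir218-1 and from Mir218-2): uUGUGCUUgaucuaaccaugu
miR-218-1-3p: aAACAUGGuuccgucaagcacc
miR-218-2-3p: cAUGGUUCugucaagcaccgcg
miR-488-5p: cCCAGAUAauagcacucucaa
miR-488-3p: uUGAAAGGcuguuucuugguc
miR-346-5p: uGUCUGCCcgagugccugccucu
miR-346-3p: aGGCAGGGgcugggccugcagc
miR-326-5p: gGGGGCAGggccuuugugaaggcg
miR-326-3p: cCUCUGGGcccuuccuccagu

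Among these 6 genes, no seed was common to different members except that of miR-218-5p, which the Slit2 and Slit3 hairpins both encode. The longest stretch held by the Mir218-1 and Mir218-2 hairpins alike was 22 bases, uugugcuugaucuaaccaugug, whereas every other pair of the 6 hairpins shared at most 8 bases. The mature 5p form of miR-218 lies wholly within that stretch. Its surroundings are shown here with the mature form in capitals, because only the flanking bases separate the loci.
Mir218-1: cugUUGUGCUUGAUCUAACCAUGUgcu
Mir218-2: ccuUUGUGCUUGAUCUAACCAUGUggu
A read that lies inside the shared stretch matches both loci and was given to neither, since the tables count only reads with a single position. The 3p arms of the pair overlap over 19 bases and differ there by C12U, in which the first base is that of miR-218-1-3p, counted from its 5′ end, and the second that of miR-218-2-3p. Outside the set, RefSeq lists the seed of miR-326-3p also in miR-330-5p (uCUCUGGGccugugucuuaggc, chromosome 7), that of miR-218-5p in miR-7002-3p, that of miR-218-1-3p in miR-496b and that of miR-346-3p in miR-7001-5p.

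Each of the 7 genes lay in an intron of the host named for it, on the host's own strand, in every protein-coding transcript that spans it. Mir383 (ENSMUSG00000065457.3; mm10 chromosome 8, 38252133 to 38252202, minus strand) lies in intron 1 of Sgcz, an intron of 707.7 kb. Mir326 (ENSMUSG00000065571.1; chromosome 7, 99552269 to 99552363, plus strand) lies in intron 1 of Arrb1, and Mir346 (ENSMUSG00000065481.1; chromosome 14, 34894609 to 34894706, plus strand) in intron 2 of Grid1, an intron of 123 kb. These 3 hairpins are at least 16470 bases from the nearest exon of the transcript used.

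The other 4 hairpins lie in introns shorter than 10 kb. Mir488 (ENSMUSG00000070103.2; chromosome 1, 158505625 to 158505733, plus strand) starts 155 bases after exon 5 of Astn1, the shortest distance to an exon in the set. Mir218-1 (ENSMUSG00000065603.1; chromosome 5, 48223942 to 48224051, plus strand) lies in intron 16 of Slit2, 601 bases before the next exon. Mir218-2 (ENSMUSG00000065583.1; chromosome 11, 35616816 to 35616925, plus strand) lies in intron 14 of Slit3. Intron numbers follow the transcript with the most exons, which has 39 exons in Slit2 and 36 in Slit3. The numbers 16 and 14 therefore do not show that the introns of the pair differ. Mir153 (ENSMUSG00000065538.1; chromosome 12, 117250817 to 117250885, plus strand) lies in intron 19 of 22 of Ptprn2, at 96.7% of the host's length. None of the 7 hosts holds another annotated microRNA gene. The antisense genes Gm5441 and Gm37679 cross Mir153 and Mir488, yet none of the 7 genes had a count on the opposite strand in either library, and ignoring strand left their counts as they were.

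**Figure D1:**
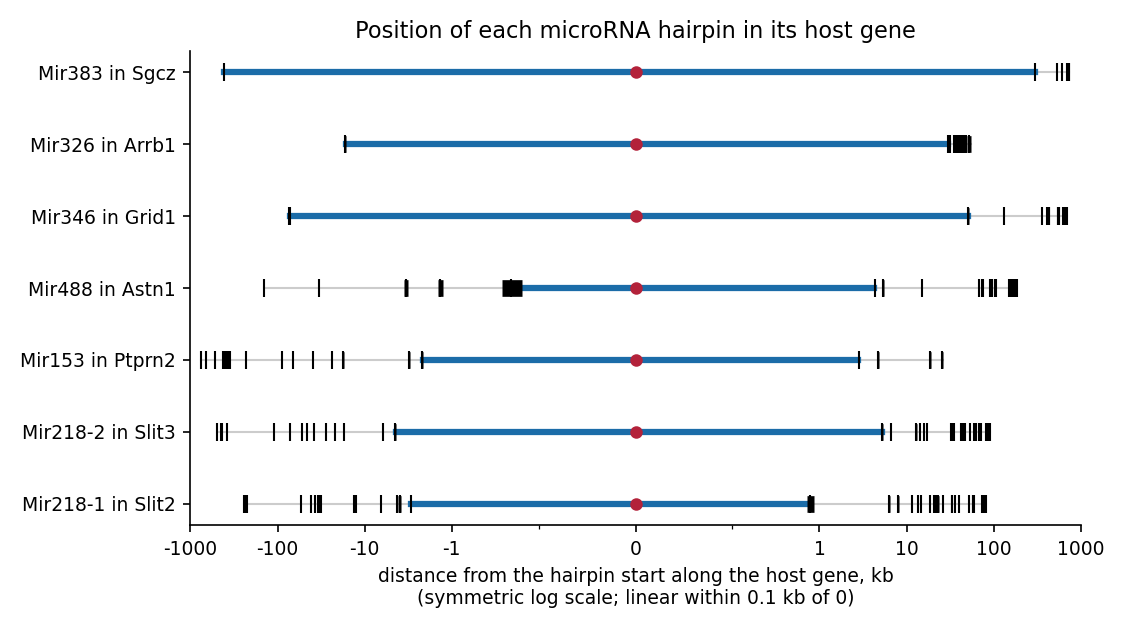
Position of each hairpin (red point at 0) in its host gene, in kb along the host's strand on a symmetric log axis, ordered from the highest to the lowest mean level. The blue bar is the intron that holds the hairpin, black marks are exons of the host transcript with the most exons and the grey line is the rest of the transcript. The introns of Sgcz, Arrb1 and Grid1 reach over 10 kb on both sides, and the hairpin of Mir488 lies 0.155 kb from an Astn1 exon.

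Levels are given in CPM: the reads counted on the strand of the gene per 1000000 reads of the library's sum over genes, which was 4111167 in replicate 1 and 3189903 in replicate 2. The value of a gene adds both arms of its hairpin. The mature forms printed above are 21 to 24 bases long, so no correction for length was made. In bulk tissue, fewer cells of a type and less RNA per cell cannot be told apart. Of the marker lists, the cortical neuron list held 5.21% ± 0.568 of the counts (SD, n = 2), with 6 of its 9 genes detected. Those not detected were Mir124a-1, Mir124a-2 and Mir124a-3. The hindbrain and spinal cord list held 0.00442% ± 0.00199, with Mir196a-1 and Mir196a-2 at 0 counts. Reads matching several positions were not counted, so low or 0 counts do not show absence where gene copies share a mature form. How many Mir124a and Mir196a reads were lost this way was not analysed.

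All 7 genes were detected, meaning at least 10 counts in each library, against 406 of 2202 genes (18.4%) in the whole table. Together they held 0.520% ± 0.101 of the counts (SD, n = 2): 24291 counts in replicate 1 (0.591%, exact Clopper-Pearson 95% interval 0.583 to 0.598%) and 14301 in replicate 2 (0.448%, 0.441 to 0.456%). Their levels were far apart. The highest exceeded the lowest by 285-fold in replicate 1 and 475-fold in replicate 2, and Mir383 alone gave 66.1% ± 0.499 of the set's counts. The median log2(mean CPM + 1) was 8.68 for the 7 genes, 7.02 for the detected genes and 0 for all genes of the table.

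Mir383, from the very long first intron of Sgcz, stood clear of the other members. It had 15980 counts in replicate 1, or 3887 CPM, and 9509 counts in replicate 2, or 2981 CPM, giving 3434 ± 641 CPM (SD, n = 2). It ranked 54th in the whole table by mean CPM and 20th among the 154 detected genes that lie in a sense intron of a protein-coding gene. Its level exceeded that of Mir326, the next member, by 6.54-fold in replicate 1 and 6.16-fold in replicate 2. Mir323 and Mir92b were its nearest neighbours in the table, at 3463 and 3425 CPM.

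Mir326, Mir346 and Mir488 formed a middle group within a narrow range. Mir326, in the beta-arrestin 1 gene, had 2445 counts (595 CPM) in replicate 1 and 1543 (484 CPM) in replicate 2. Mir346, in the delta-1 glutamate receptor gene, had 2160 (525 CPM) and 1440 (451 CPM). The means were 539 ± 78.5 CPM for Mir326 and 488 ± 52.3 CPM for Mir346 (SD, n = 2 each), the ranges of the libraries overlap, and the means differ by less than the sum of the SDs. Mir488, in the astrotactin gene, had 1624 counts (395 CPM) in replicate 1 and 1353 (424 CPM) in replicate 2, a mean of 410 ± 20.6 CPM. Both of its values lay under both of Mir346, by 1.33-fold in replicate 1 and 1.06-fold in replicate 2. Its coefficient of variation, 5.03%, was the lowest of the 7.

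Of the genes found to share a seed with the set, with chromosome 18 left out of the search, Mir330 was the only one detected. Its level was 16.3 times that of Mir326 in replicate 1 (9662 CPM) and 16.5 times in replicate 2 (7972 CPM). Since arms are not separated in these counts, how much of either gene comes from the arm with the shared seed was not measured. Mir7002 had 2 counts, all in replicate 1, and Mir496b and Mir7001 had 0 in both. For reads with a single position, a level of 0.730 CPM (replicate 1) or 0.940 CPM (replicate 2) could go unseen by counting error alone, the limit set by 3 counts.

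Mir153, whose mature 3p form is known in mouse and human to repress alpha-synuclein, had no stable place in the order. It had 1644 counts in replicate 1, or 400 CPM (95% interval 381 to 420), and 197 in replicate 2, or 61.8 CPM (53.4 to 71.0). The SD of 239 CPM exceeded the mean of 231 CPM. In replicate 1 it stood 1.01-fold relative to Mir488 and 4.30-fold relative to Mir218-2, and in replicate 2 it stood 0.146-fold and 0.824-fold. It ranked 150th of the table in replicate 1 and 230th in replicate 2. The other 6 members kept the same order among themselves in both libraries.

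The miR-218 genes, whose shared mature form is known as strongly enriched in mouse motor neurons and to repress the Slit receptor Robo1, had the lowest means of the set, although in replicate 2 Mir218-2 stood above Mir153. Mir218-2 had 382 counts (92.9 CPM) in replicate 1 and 239 (74.9 CPM) in replicate 2, a mean of 83.9 ± 12.7 CPM (SD, n = 2). Mir218-1 had 56 counts (13.6 CPM) and 20 (6.27 CPM), a mean of 9.95 ± 5.20 CPM, and ranked 332nd in the table. The Slit3 copy thus held 87.2% of the counts of the pair in replicate 1 (exact Clopper-Pearson 95% interval 83.7 to 90.2%) and 92.3% in replicate 2 (88.3 to 95.2%), or 6.82 and 12.0 times the Slit2 copy. These values cover only reads that tell the loci apart. Reads that are exactly mature miR-218-5p match both loci and cannot be among them, so neither the summed level of miR-218 nor the share of it made by each locus is given by the tables. Reads with several positions, the class such reads fall in, made up 39.1% of all reads of replicate 1 and 41.4% of replicate 2. What part of them is miR-218 was not analysed here.

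**Figure D2:**
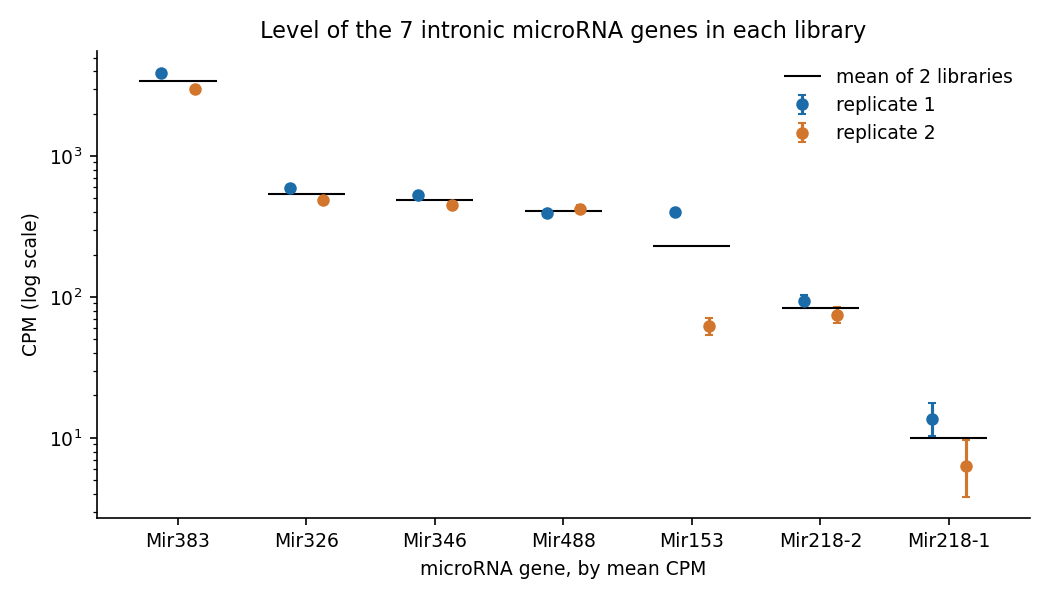
Level of the 7 genes in each library, in CPM on a log axis, ordered by mean. Points are the libraries, bars are exact Clopper-Pearson 95% intervals that cover counting error only, and black lines are means. Mir383 lies at 3887 and 2981 CPM, Mir326, Mir346 and Mir488 lie between 395 and 595 CPM, and the points of Mir153 lie at 400 and 61.8 CPM.

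Set in order, the means run Mir383, Mir326, Mir346, Mir488, Mir153, Mir218-2 and Mir218-1. Neighbours whose library ranges overlap are Mir326 and Mir346, Mir488 and Mir153, and Mir153 and Mir218-2. Within each library Mir326 stood above Mir346, by 1.13-fold and 1.07-fold, and the other pairs changed order between the libraries. With 2 libraries none of these orders is settled. The steps below Mir383 (6.37-fold between the means) and between Mir218-2 and Mir218-1 (8.44-fold) are larger than the spread of 2 libraries. The step between Mir346 and Mir488 also exceeds that spread, but it is only 1.19-fold between the means. Their exact Clopper-Pearson intervals overlap in replicate 2, at 428 to 475 CPM for Mir346 and 402 to 447 CPM for Mir488. In replicate 1 they lie apart, at 504 to 548 CPM and 376 to 415 CPM. The order of Mir346 and Mir488 is thus not settled either. Among the 154 detected sense-intronic genes the members took places 20, 44, 47, 49, 61, 76 and 116. Of 710 microRNA genes in a sense intron of a protein-coding gene, 154 (21.7%) were detected. Genes with the nearest mean level were Mir212 and Mir15b around Mir326, Mir421 and Mirlet7c-1 around Mir346, Mir376c and Mir669c around Mir488, Mir3059 and Mir500 around Mir153, Mir1198 and Mir155 around Mir218-2, and Mir363 and Mir219a-1 around Mir218-1.

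**Figure D3:**
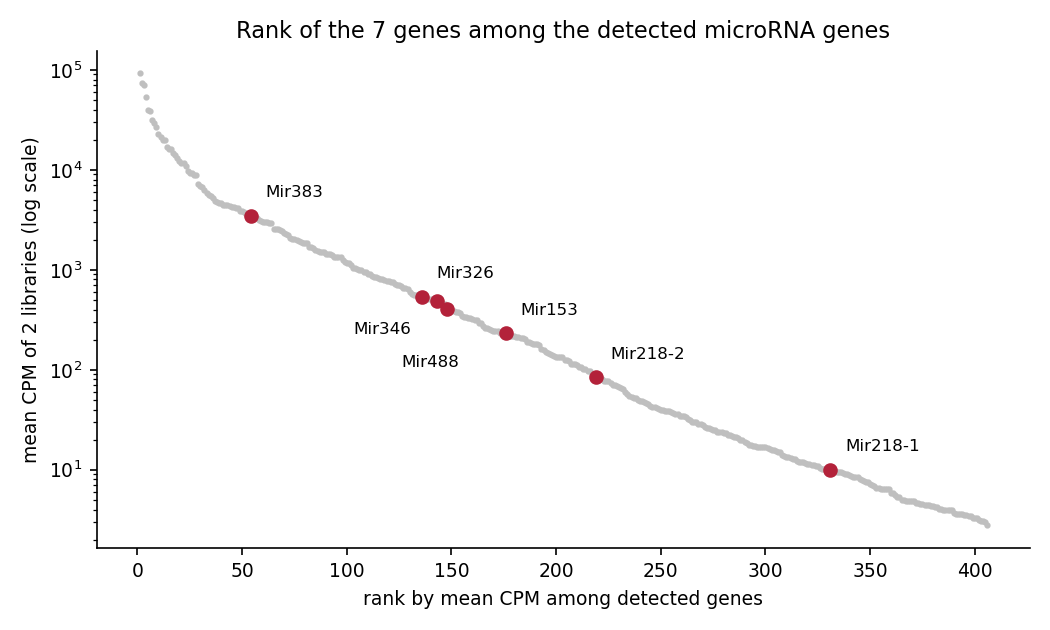
Mean CPM of 2 libraries, on a log axis, against rank for the 406 detected microRNA genes (grey), with the 7 members in red. The members run from rank 54 for Mir383 to rank 331 for Mir218-1, and Mir326, Mir346 and Mir488 lie together at ranks 136 to 148.

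The 2 libraries were set against each other gene by gene. In the exact binomial test, which asks whether a gene's counts split as the library totals do, 6 of the 7 members passed an adjusted p of 0.05, while 58.1% of all 406 tested genes did. All 6 were higher in replicate 1, a direction taken by 34.7% of the tested genes; the opposite direction was taken by 23.4% of tested genes and by none of the members. The test allows for the sampling of reads only and compares 2 libraries, not conditions. The median log2 ratio of CPM + 1, replicate 1 over replicate 2, was 0.31 over the members and 0.08 over the detected genes. With TMM library sizes, which lower the log2 ratio of CPM without a pseudocount by 0.08, the calls over all genes were 110 higher and 111 lower in replicate 1, against 141 and 95 with library totals. With DESeq2 size factors they were 108 and 112. Under either scaling Mir218-2 no longer passed and Mir488 passed as higher in replicate 2, so the members then split 5 to 1.

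Mir153 had the largest difference of the set. Its CPM was 6.48-fold higher in replicate 1 (exact 95% interval 5.58 to 7.55), a log2 ratio of 2.68, with an adjusted p of 1.26e-209 in the exact binomial test. By absolute log2 ratio it ranked 4th of the 406 detected genes. Of 61 other detected genes with a mean level within 2-fold of its own, 9 differed by more than 2-fold between the libraries. Only Mir26a-2, at -4.76 and named after its value was seen, reached at least the absolute ratio of Mir153.

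Mir218-1 was 2.17-fold higher in replicate 1 (exact 95% interval 1.28 to 3.82; adjusted p = 0.00485, exact binomial test), on 76 counts in all. The other called members differed little in size. Mir383 was 1.30-fold higher in replicate 1 (1.27 to 1.34), Mir218-2 1.24-fold (1.05 to 1.46), Mir326 1.23-fold (1.15 to 1.31) and Mir346 1.16-fold (1.09 to 1.25). Mir488 did not pass with library totals, at 0.931-fold (0.866 to 1.00; adjusted p = 0.0884, exact binomial test). The median absolute log2 ratio was 0.31 for the members and 0.29 for the detected genes. Marker lists of other cells also differed between the libraries. The choroid plexus list, with 4 of 5 genes detected, held 0.0945% of counts in replicate 1 and 0.131% in replicate 2. The endothelial marker Mir126a held 1.05% and 1.32%, and the oligodendrocyte list, with 3 of 3 detected, 0.286% and 0.253%. The smooth muscle and pericyte list, with 2 of 2 detected, held 0.507% and 0.522%, and the microglia and leukocyte list, with 4 of 5 detected and Mir142a matching no gene of the table, 0.184% and 0.197%. Of the 4 detected genes of the microglia and leukocyte list, 2 were higher in replicate 1. Mir146 had 881 and 1090 CPM, whereas Mir142 had 114 and 65.8 CPM. The hindbrain and spinal cord list, with 1 of 5 detected, held 0.00302% and 0.00583%, and the cortical neuron list 4.81% and 5.61%. Within the cortical neuron list, Mir132 had 12230 CPM in replicate 1 and 20125 CPM in replicate 2. Of the 6 detected genes of that list, 2 were higher in replicate 1: Mir137 (10488 and 9204 CPM) and Mir138-2 (2040 and 1868 CPM). The sum of a list thus need not hold for each of its genes. The part of the marker lists in the differences of the members was not tested.

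**Figure D4:**
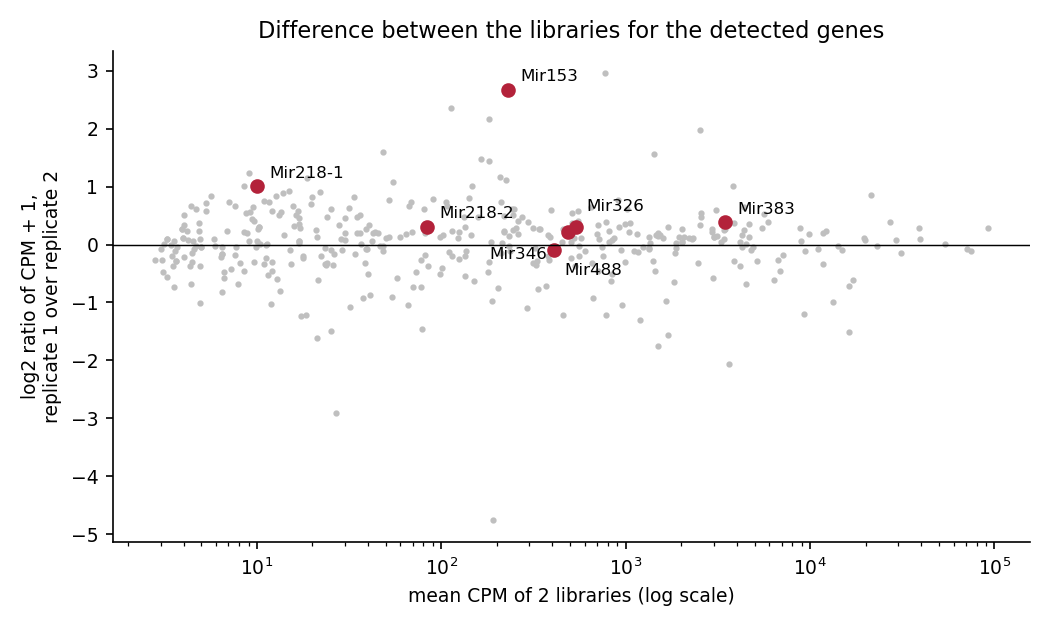
Log2 ratio of CPM + 1, replicate 1 over replicate 2, against mean CPM on a log axis for the 406 detected genes (grey) and the 7 members (red), with library totals as the scale. Mir153 lies at 2.68 and Mir218-1 at 1.01, and the other members lie between -0.10 and 0.38.

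A list of 16 other microRNAs gave a wider range than the 7 members. All but Mir873b, which has no host gene on its own strand, were placed in genes of neurons and synapses. Of the 16, 13 were detected, and they held 11.5% ± 1.24 of the counts (SD, n = 2), most of it in Mir139 of Pde2a at 92324 ± 13062 CPM. Next were Mir128-1 in R3hdm1 (14152 ± 150 CPM), Mir128-2 in Arpp21 (5185 ± 739 CPM), Mir708 in the teneurin gene Tenm4 (1868 ± 18.3 CPM) and Mir1224 in Vwa5b2 (508 ± 136 CPM). By counted reads, Mir383 would stand between Mir128-2 and Mir708, and the mean of Mir1224 falls between those of Mir326 and Mir346. Any read that matches both Mir128 genes was not counted, so the levels of these genes may be partial. Mir876, in the same host Lingo2 as Mir873a, had 0 counts in both libraries. Mir873b, annotated opposite to Mir873a, also had 0 on its own strand. With counts that ignore strand Mir873a lost its 1153 and 734 counts to this overlap. In the exact binomial test 9 of the 13 were higher and 3 lower in replicate 1, beside 34.7% and 23.4% of all tested genes. With TMM library sizes, tried for this list after the data were seen, the split was 9 to 4, beside 110 to 111 over all genes. The median log2 ratio, replicate 1 over replicate 2, was 0.51 over these 13 and 0.31 over the 7 members, with 0.08 over the 406 detected genes. Mir592, in the metabotropic glutamate receptor gene Grm8, had the largest ratio of the list, with 301 counts (73.2 CPM) in replicate 1 and 75 (23.5 CPM) in replicate 2, a log2 ratio of 1.60. Unlike the 7 members, Mir592 also overlaps an exon of an annotated transcript on its strand.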

How the data were processed

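The deposited tables hold raw read counts per microRNA gene, 1 table per library, with no normalization. Per the file layout they have 3 count columns (strand ignored, strand of the gene, opposite strand) after 4 rows for reads given to no gene, and the descriptions deposited beside them name mm10 and GENCODE M21. The aligner is not given in the sources used here. Reads in no gene row, 63.4% of replicate 1 and 63.6% of replicate 2, stayed out of the totals. The column for the gene's own strand was scaled to CPM. Hosts came from GENCODE M21, in the coding transcript with the most exons, and sequences from RefSeq.

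Each gene with at least 10 counts in both libraries was tested with a two-sided exact binomial test, adjusted by Benjamini-Hochberg over all 406 (Python 3.11.15, scipy 1.17.1). Sizes from edgeR 4.0.16 (TMM) and DESeq2 1.42.0 were alternatives. The test was checked on simulated counts that vary by read sampling alone, so the check does not cover further variation between libraries. Intervals take reads as independent and hold counting error alone. With 2 libraries of 1 group, no test over samples was made.

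Members and lists were chosen with earlier results of these data known. Named genes are the members, their neighbours in mean CPM, genes sharing a seed, the 5 leading genes of the list of 16 and those of it with 0 counts. Mir592, Mir873a and the Htr2c genes were added after their values were seen. Some genes of the marker lists are named too, the Mir124a genes after their values were seen.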

Additional observations from a re-analysis of the deposited data

Results flagged for a closer look

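Reads that matched several genomic positions lie outside every count used here, and they are given because miR-218-5p reads fall in this class. There were 4388585 such reads in replicate 1 and 3624634 in replicate 2. How many of them come from the Mir218 genes was not analysed here.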

How the results depend on the processing

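The share of the 7 genes in the counts moved from 0.520% to 0.190% with all reads as the total and to 0.176% without Mir383, which follows from the larger total and from the gene removed. Its other values, including one without both Mir218 genes that was added after the data were seen, stayed within 1 SD. For the values of a single library this is fixed in advance, since each of 2 libraries always lies within 1 SD of their mean. The number of members detected, the 6 members past the exact binomial test and the 236 genes past it stayed within 1.5 times under every alternative run: 6 members had at least 50 counts in each library, 5 passed the test with that minimum, and 5 passed an adjusted p of 0.01. Of 35 log2 ratios under alternatives none changed sign. The call of Mir218-2 was lost with TMM (0.23 on the log2 scale) and DESeq2 sizes (0.23), and that of Mir488 was gained (-0.18 with each). Of 28 mean levels under alternatives 20 stayed within 1 SD and 8 moved, 6 of them with all reads as the total. Mir153 counts as unmoved there, although its mean fell from 231 to 84.5 CPM, because its SD exceeds its mean. Leaving out a replicate leaves 1 library, so the exact test has no such value. Mir218-1, with 56 and 20 counts, is the member most limited by depth.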

Other observations

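The serotonin receptor gene Htr2c, host to several listed microRNAs, shows how far levels can differ among hairpins of 1 host. Its introns hold 7 annotated microRNA genes on the same strand, and 4 were detected. Mir1298 had 278 CPM in replicate 1 and 346 CPM in replicate 2. Mir1264 had 74.9 and 35.1 CPM, Mir448 had 43.3 and 24.1 CPM, and Mir764 had 26.3 and 11.3 CPM. Mir1912 had 2 counts in replicate 1 and 0 in replicate 2. Mir1298 was higher in replicate 2 and the other 3 detected genes were higher in replicate 1, each past the exact binomial test with adjusted p from 6.91e-07 (Mir1298) and 2.17e-12 (Mir1264) to 2.73e-05 (Mir448). These libraries hold no values for the host RNA.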
